A study of Mus musculus with 20 samples.

Results

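The RNA of 10 genes of the insulin-like growth factor (IGF) system was followed through embryoid body (EB) differentiation of mouse induced pluripotent stem cell (iPSC) lines with and without the NADPH oxidase gene Nox4. The genes are the ligands Igf1 and Igf2, the receptors Igf1r and Insr, and the binding proteins Igfbp2, Igfbp3, Igfbp4, Igfbp5, Igfbp6 and Igfbp7. They were taken by symbol from a count table of 55573 Ensembl genes, of which 33860 had a nonzero value in at least 1 library. All 10 genes were among the 33860.

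The table holds 20 libraries from 4 clonal iPSC lines, each sampled once on days 0, 3, 5, 7 and 14. WT#1-4 and WT#20D-17 are wild type, and Nox4-/- #5-8 and Nox4-/- #5-23 lack Nox4. The study's methods describe such lines as single colonies of embryonic fibroblasts transduced with retroviral Oct4, Sox2, Klf4 and c-Myc, kept on mitomycin C treated feeder fibroblasts with leukemia inhibitory factor (LIF). WT#20D-17 is given by the sample labels alone and is not among the lines that the study's text describes. EBs were formed in hanging drops without LIF for 3 days and plated on gelatin. The sample titles give day 14 as the last day, whereas the protocol text of the labels gives day 10. The titles were followed. The methods name CF-1 embryos as a source of embryonic fibroblasts, and no further strain or agent was taken from the labels.

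Library totals were between 20294968 and 27708023 counts, with a median of 23878854, so that 3 counts, the smallest number taken as detected, stood for between 0.110 and 0.157 CPM, the count after scaling each library to the same total. Nox4 itself had 3 to 22 counts in WT#1-4 and 56 to 203 counts in WT#20D-17. It had 0 to 2 counts in Nox4-/- #5-8 and 0 in every library of Nox4-/- #5-23. No library thus went against its genotype label, but 3 counts in the lowest WT#1-4 library are too few to check its label. The label iPSC was checked against 11 pluripotency markers on day 0. Nanog had 383 CPM in WT#20D-17 but 0.0380 CPM in WT#1-4, 0.360 CPM in Nox4-/- #5-8 and 0.149 CPM in Nox4-/- #5-23. Summed over the 11 markers, day 0 had 3162 CPM in WT#20D-17 and 153, 158 and 183 CPM in the other lines. Of these markers, 3 had at most 3 counts in every library of WT#1-4 (Zfp42, Dppa3 and Dppa4), 4 in Nox4-/- #5-8 and 6 in Nox4-/- #5-23, and the others were above 3 counts in at least 1 library. By Nanog and by the sum, WT#20D-17 thus stood far above the other 3 lines on day 0.

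IGF1 and IGF2 are secreted growth factors that activate the IGF1 receptor, a tyrosine kinase encoded by Igf1r, and IGF2 also binds a form of the insulin receptor encoded by Insr. The binding proteins hold IGFs outside cells and set how much ligand reaches the receptors. Igf2 is an imprinted gene expressed from the paternal chromosome in most embryonic tissues and is a growth factor of the fetus, with the maternally expressed non-coding RNA H19 as its neighbour.

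The bases upstream of 4 members are shown as examples. Of these genes, Igf2, Igfbp4 and Igfbp7 were lower in the Nox4-/- lines against either wild type line, and Igfbp3 lay in the opposite direction. Igf1 and Igfbp5 were also lower against either wild type line and are not shown. For Igf2 this is 1 of 4 starts and lies inside the annotated gene, while the other 3 runs lie just before theirs. Each run is the 100 bases before an annotated RefSeq start on GRCm38.p6, read on the strand of the gene. Capitals mark a TATA box (TATAAA), a GC box (GGGCGG) or a CCAAT box (CCAAT) on either strand, so a GC box on the other strand is written as CCGCCC.
Igf2, chr7:142657497-142657596, minus strand: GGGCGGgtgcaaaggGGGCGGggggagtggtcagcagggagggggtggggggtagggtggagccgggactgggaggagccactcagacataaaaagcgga
Igfbp4, chr11:99041144-99041243, plus strand: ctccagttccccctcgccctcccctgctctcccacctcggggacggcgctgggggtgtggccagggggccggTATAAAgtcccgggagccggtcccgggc
Igfbp7, chr5:77408046-77408145, minus strand: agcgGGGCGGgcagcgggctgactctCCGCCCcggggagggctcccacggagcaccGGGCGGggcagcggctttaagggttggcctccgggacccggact
Igfbp3, chr11:7213924-7214023, minus strand: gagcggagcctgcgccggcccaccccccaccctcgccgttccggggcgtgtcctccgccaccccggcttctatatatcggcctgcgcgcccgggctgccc
The promoter table matched 9 of the 10 members with 13 starts. Insr had no entry. Within 250 bases before a start, the TATA box letters were present for 2 members, Igfbp4 and Igfbp6. Those of the GC box were present for 4 members, Igf2, Igf1r, Igfbp2 and Igfbp7, and those of the CCAAT box for 3, Igf1, Igf2 and Igfbp6. Igfbp3, Igfbp5 and the Igf2 starts at 142666816 and 142661271 had none of the 3 motifs. The CCAAT matches of Igf1 and Igf2 and the TATA match of Igfbp6 lay outside the 100 bases before the start. So did some of the GC box matches of Igfbp2 and Igfbp7 and of the CCAAT matches of Igfbp6. The runs above thus do not hold every match counted. Counted by start, the 3 motifs were present at 2, 5 and 3 of the 13 starts, in the same order. Over 32851 promoters, they were found in 12.37%, 32.74% and 33.85%, a share of promoters and not of genes. Each motif was counted on its own, also where letters overlapped with another, and a match is a description only.

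Igf2 (ENSMUSG00000048583; GRCm38 chromosome 7, 142650766 to 142666816, minus strand) was higher after day 0 than on day 0 in both wild type lines and low throughout in both Nox4-/- lines. Values are CPM scaled with TMM factors unless stated. In WT#1-4 the level was 3.54, 10.6, 23.4, 54.5 and 51.7 CPM on days 0, 3, 5, 7 and 14. WT#20D-17 had 14.4, 519, 2590.1, 4703 and 3591 CPM on the same days. Both wild type lines were thus highest on day 7, but they lay far apart from each other from day 3 on. In Nox4-/- #5-8 the level was 1.76, 2.56, 2.79, 3.52 and 1.48 CPM, and in Nox4-/- #5-23 it was 2.16, 1.33, 3.32, 3.78 and 1.31 CPM. Only the day 0 library of WT#1-4 fell within the Nox4-/- values, and every later library of that line was above all 10 of them. The ratio of day 14 to day 0 was 14.6 in WT#1-4 and 248.8 in WT#20D-17, against 0.844 and 0.610 in the Nox4-/- lines #5-8 and #5-23.

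The genotypes were first compared with the days of a line pooled. The test, edgeR's exact test, covered the 33860 genes, and the threshold was a false discovery rate (FDR) under 0.01. Against WT#1-4, Igf2 was lower in the Nox4-/- lines by 3.58 ± 0.45 on the log2 scale (SE, FDR of 2.34e-12), with means of 28.8 and 2.40 CPM. The exact test gives no SE, so for this test each SE came from edgeR's quasi-likelihood fit of the same libraries. Against WT#20D-17, whose mean was 2284 CPM, the log2 difference was -9.89 ± 0.78 (FDR of 7.44e-35). Both comparisons use the same 10 Nox4-/- libraries. The days of a line are not separate cultures of a genotype, so these FDR values measure the spread among libraries of single lines. Igf2 shares its position with Gm49394 and Mir483 on the same strand and with Igf2os on the other, and whether the counting used strand is not given in the sources used here.

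**Figure D1:**
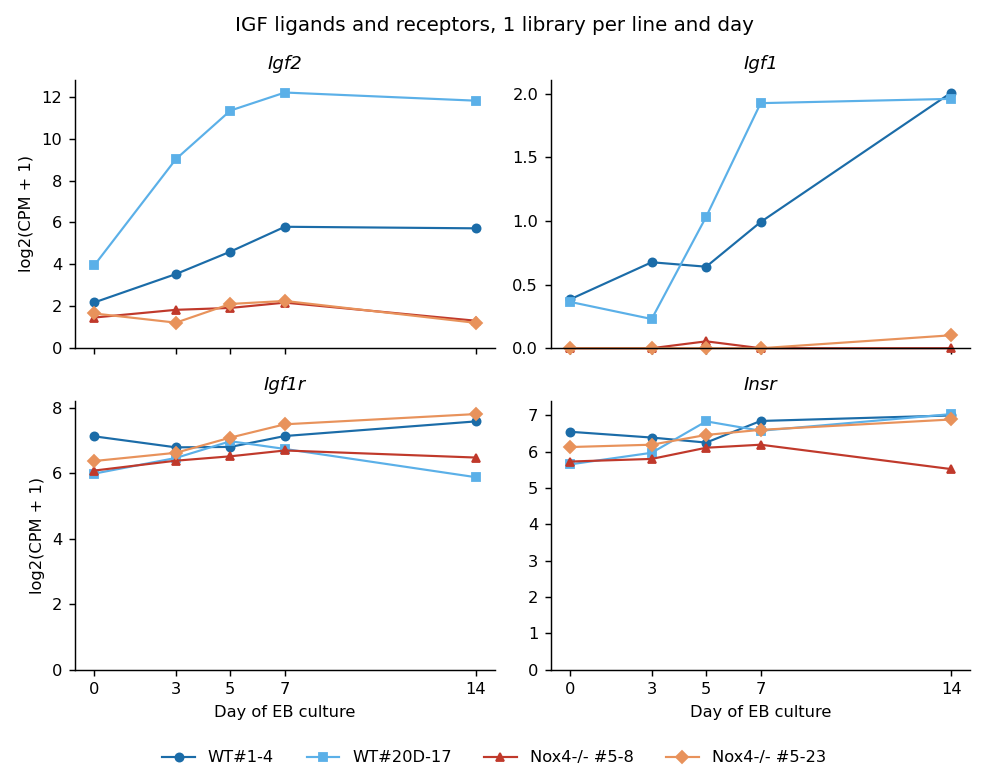
Levels of Igf2, Igf1, Igf1r and Insr as log2(CPM + 1) against the day of EB culture, where each point is 1 library and lines join the libraries of a cell line. Igf2 reached 4703 CPM in WT#20D-17 and 54.5 CPM in WT#1-4 but at most 3.78 CPM in the Nox4-/- lines, while Igf1r lay between 57.9 and 223 CPM in all 20 libraries.

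Igf1 (ENSMUSG00000020053; chromosome 10, 87858265 to 87937042, plus strand), the ligand best known as the mediator of growth hormone action, was scarce in the wild type lines and nearly absent from the Nox4-/- lines. WT#1-4 had 8, 15, 15, 26 and 61 counts on days 0, 3, 5, 7 and 14, which were 0.304, 0.597, 0.558, 0.988 and 3.02 CPM. WT#20D-17 had 7, 4, 24, 63 and 55 counts, or 0.287, 0.172, 1.045, 2.80 and 2.89 CPM. WT#1-4 was highest on day 14, and its 95% Wilson intervals of day 0 (0.154 to 0.601 CPM) and day 14 (2.35 to 3.88 CPM) did not overlap. In WT#20D-17 the intervals of days 7 and 14 overlapped. Of the 10 Nox4-/- libraries, 8 had no Igf1 count, Nox4-/- #5-8 had 1 on day 5 and Nox4-/- #5-23 had 2 on day 14. The CPM values of the genotypes did not overlap. Their Wilson intervals did, as for WT#20D-17 on day 3 (0.0670 to 0.443 CPM) and Nox4-/- #5-23 on day 14 (0.0200 to 0.266 CPM). How many of all genes had no overlap of values was not counted, here or for the genes below.

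Summed over its 5 libraries, Igf1 had 125 counts in WT#1-4 and 153 in WT#20D-17, against 3 counts in the 10 Nox4-/- libraries. Scaled to library size, the sum in WT#1-4 was 81.0 times that in the Nox4-/- lines (95% exact interval of 27.1 to 398), and that in WT#20D-17 was 110.3 times (37.0 to 541). Intervals cover counting error only, since reads carry no molecular identifiers. The exact test gave an FDR of 2.15e-11 against WT#1-4 and 9.38e-11 against WT#20D-17. Its fitted log2 differences, -5.99 ± 0.73 and -6.38 ± 0.80, depend on the count that edgeR adds to low values. Igf1 overlaps the antisense gene Igf1os.

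Neither receptor passed the threshold against either wild type line. Igf1r (ENSMUSG00000005533; chromosome 7, 67952827 to 68233668, plus strand) had 110 to 191 CPM in WT#1-4 (median 139) and 57.9 to 125 CPM in WT#20D-17 (median 87.4). It had 66.7 to 103 CPM in Nox4-/- #5-8 (median 88.2) and 81.8 to 223 CPM in Nox4-/- #5-23 (median 135). The lines overlapped, and the genotypes were not ordered. Its log2 difference in Nox4-/- lines was -0.27 ± 0.25 against WT#1-4 (FDR of 0.812) and 0.39 ± 0.27 against WT#20D-17 (FDR of 0.385). The sign against WT#1-4 turned when Nox4-/- #5-8 was left out (0.087), and that against WT#20D-17 turned when Nox4-/- #5-23 was left out (-0.016).

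Insr (ENSMUSG00000005534; chromosome 8, 3122061 to 3279617, minus strand), the insulin receptor, had 75.1 to 127 CPM in WT#1-4, 49.2 to 130.1 CPM in WT#20D-17, 44.9 to 72.1 CPM in Nox4-/- #5-8 and 68.9 to 117 CPM in Nox4-/- #5-23. Every library of Nox4-/- #5-8 lay below the lowest of WT#1-4, whereas Nox4-/- #5-23 overlapped both wild type lines. The log2 difference was -0.42 ± 0.20 against WT#1-4 (FDR of 0.320) and -0.29 ± 0.24 against WT#20D-17 (FDR of 0.453). In Nox4-/- #5-23 both receptors were higher on each sampled day than on the one before, with ratios of day 14 to day 0 of 2.72 for Igf1r and 1.70 for Insr. Insr overlaps Gm16180 and Vmn2r-ps88 on the other strand.

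Among the binding proteins, Igfbp5 and Igfbp7 were lower in every Nox4-/- library than in any library of WT#1-4, which is 1 line. How many of all genes were so placed was not counted. Igfbp5 (ENSMUSG00000026185; chromosome 1, 72857932 to 72874884, minus strand), which binds extracellular matrix as well as IGFs, had 7.00, 9.51, 14.5, 21.5 and 15.4 CPM in WT#1-4 on days 0, 3, 5, 7 and 14. In WT#20D-17 it had 2.13, 12.6, 163, 291 and 137 CPM. Both wild type lines were highest on day 7, as they were for Igf2. The Nox4-/- lines had 1.16, 4.07, 2.03, 2.601 and 0.649 CPM (#5-8) and 1.00, 1.74, 3.51, 3.42 and 2.37 CPM (#5-23). The day 0 library of WT#20D-17 was the only wild type library within the Nox4-/- values. The log2 difference was -2.59 ± 0.37 against WT#1-4 (FDR of 4.15e-09) and -5.74 ± 0.69 against WT#20D-17 (FDR of 2.36e-15).

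Igfbp7 (ENSMUSG00000036256; chromosome 5, 77349240 to 77408041, minus strand), a low-affinity IGF binder found in vessel walls, had 5.29, 3.10, 3.95, 4.29 and 6.98 CPM in WT#1-4. In WT#20D-17 it had 0.369, 1.16, 2.79, 3.77 and 28.2 CPM, each above the day before it. The lines #5-8 and #5-23 had 0.799 to 1.34 CPM (20 to 35 counts) and 0.0458 to 1.38 CPM (1 to 37 counts). The lowest value of #5-23, on day 3, came from 1 count, under the 3 taken as detected. WT#1-4 did not overlap the values of the Nox4-/- lines, whereas WT#20D-17 did on days 0 (9 counts) and 3 (27 counts). The log2 difference was -2.59 ± 0.48 against WT#1-4 (FDR of 3.88e-06) and -3.21 ± 0.74 against WT#20D-17 (FDR of 0.000116). The second value was -1.29 without day 14, with an FDR of 0.133, without Nox4-/- #5-23 its FDR was 0.0157, and with day as a covariate of the quasi-likelihood test it was -2.20 (FDR of 0.0209). Polr2b and Gm34648 overlap Igfbp7 on the other strand.

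Igfbp4 (ENSMUSG00000017493; chromosome 11, 99041244 to 99054392, plus strand), an inhibitor of IGF action until it is cleaved by PAPP-A, differed between the lines of each genotype as well. WT#1-4 had 1.98, 6.40, 11.1, 13.0 and 5.65 CPM on days 0, 3, 5, 7 and 14, and WT#20D-17 had 10.99, 53.1, 152, 159 and 118 CPM. Nox4-/- #5-8 had 1.08, 3.02, 3.67, 3.18 and 1.85 CPM, and Nox4-/- #5-23 had 0.557, 0.367, 0.189, 0.311 and 0.475 CPM. The 4 lines thus lay in the order WT#20D-17, WT#1-4, Nox4-/- #5-8 and Nox4-/- #5-23 on every day, with only the day 0 library of WT#1-4 inside the range of Nox4-/- #5-8. The log2 difference was -2.37 ± 0.61 against WT#1-4 (FDR of 0.00261) and -6.06 ± 0.66 against WT#20D-17 (FDR of 4.98e-17). Against WT#1-4 the FDR was above 0.01 without day 3 (0.0107), day 7 (0.0316) or day 14 (0.0141), without Nox4-/- #5-23 (log2 difference of -1.58, FDR of 0.0372) and with the quasi-likelihood test (FDR of 0.0190).

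Igfbp6 (ENSMUSG00000023046; chromosome 15, 102144362 to 102149511, plus strand), which binds IGF2 more tightly than IGF1, was at low counts in 3 of the lines. It had 10 to 32 counts in WT#1-4 (0.495 to 1.22 CPM), 1 to 17 in Nox4-/- #5-8 (0.0399 to 0.650 CPM) and 0 to 4 in Nox4-/- #5-23 (0 to 0.151 CPM). In WT#20D-17 it had 0.615, 2.37, 4.49, 4.97 and 7.40 CPM, the last from 141 counts. Nox4-/- #5-23 was below both wild type lines without overlap, and Nox4-/- #5-8 overlapped both. The log2 difference against WT#1-4, -1.89 ± 0.60, did not pass the threshold (FDR of 0.0148), and without Nox4-/- #5-8 it was -3.18 (FDR of 4.30e-07). It also passed with day as a covariate of the quasi-likelihood test (-2.11, FDR of 0.00454) and after filterByExpr, edgeR's filter on low counts (FDR of 0.00774). Against WT#20D-17 it was -4.10 ± 0.66 (FDR of 6.62e-09).

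Igfbp2 (ENSMUSG00000039323; chromosome 1, 72824503 to 72852474, plus strand), the neighbour of Igfbp5 and an abundant binding protein of the fetus, set WT#20D-17 apart from the other lines. That line had 395, 855, 1084, 905 and 388 CPM on the 5 days. WT#1-4 had 0.380, 58.0, 42.6, 69.7 and 32.5 CPM, Nox4-/- #5-8 had 1.28, 46.8, 49.3, 42.7 and 34.7 CPM, and Nox4-/- #5-23 had 0.743, 10.3, 12.7, 10.9 and 8.51 CPM. In these 3 lines day 0 was far below all later days, and WT#1-4 and Nox4-/- #5-8 overlapped throughout. The log2 difference was -0.90 ± 0.80 against WT#1-4 (FDR of 0.725) and -5.06 ± 0.69 against WT#20D-17 (FDR of 3.17e-12).

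Igfbp3 (ENSMUSG00000020427; chromosome 11, 7206086 to 7213923, minus strand), the main IGF carrier of adult serum, reached a higher level in each Nox4-/- line than in either wild type line. Nox4-/- #5-8 had 134, 305, 495, 581 and 1289 CPM and Nox4-/- #5-23 had 106, 178, 386, 618 and 2152 CPM on days 0, 3, 5, 7 and 14. WT#1-4 had 59.9, 197, 284, 433 and 515 CPM. In these 3 lines each sampled day was above the one before. On matched days Nox4-/- #5-8 was above WT#1-4 on all 5 days, and Nox4-/- #5-23 on each day but day 3. WT#20D-17 had 41.5, 173, 40.9, 47.1 and 40.8 CPM, with day 3 as its highest. The log2 difference was 1.07 ± 0.63 against WT#1-4, which did not pass the threshold (FDR of 0.452), and 3.19 ± 0.70 against WT#20D-17 (FDR of 5.24e-05). With day as a covariate of the quasi-likelihood test, the difference from WT#1-4 was 0.80 (FDR of 0.000925).

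**Figure D2:**
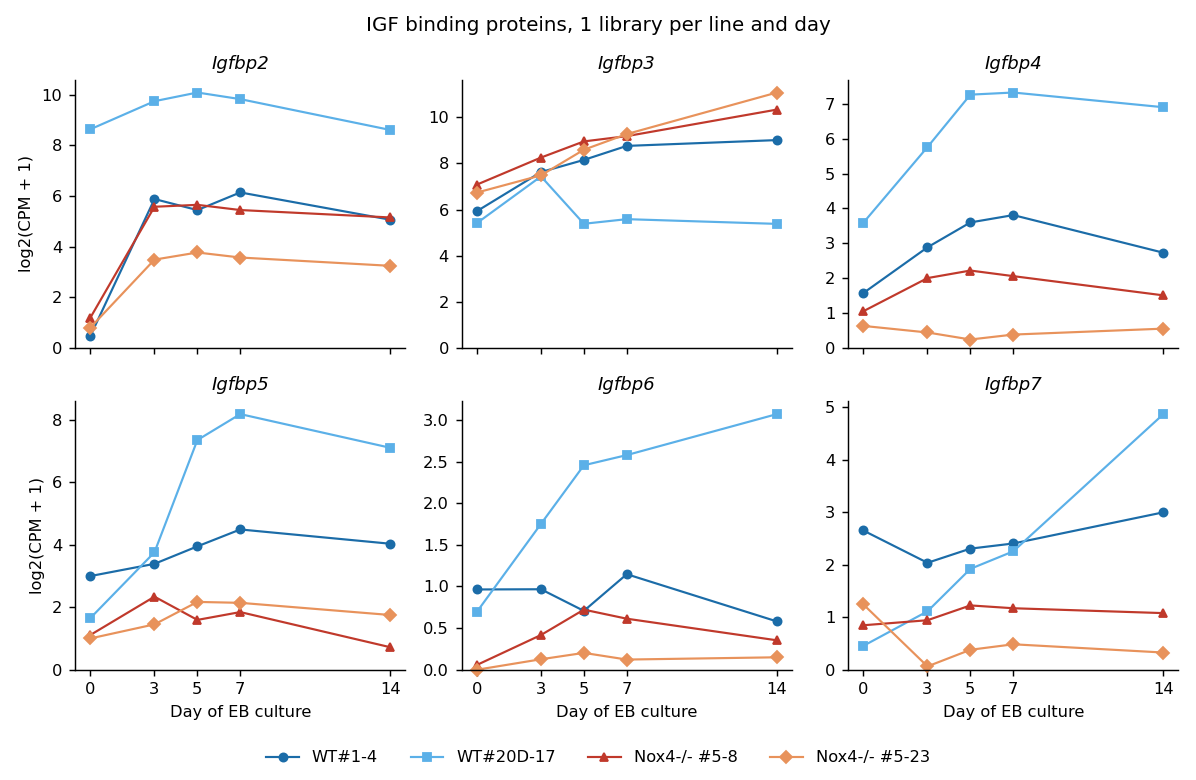
Levels of the 6 IGF binding proteins as log2(CPM + 1) against the day of EB culture, with each point 1 library and the libraries of a cell line joined. Igfbp3 ended at 1289 and 2152 CPM in the Nox4-/- lines, 515 CPM in WT#1-4 and 40.8 CPM in WT#20D-17, whereas Igfbp4 was ordered by line on every day.

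In all, 5 of the 10 members were lower and none was higher in the Nox4-/- lines against WT#1-4 at an FDR under 0.01, where 3.97% of the 33860 genes were lower and 1.65% higher. The 5 were Igf1, Igf2, Igfbp4, Igfbp5 and Igfbp7, and 6 of the members passed an unadjusted p of 0.05, where 16.8% of all genes did. The median log2 difference over the 10 members was -2.13, against 0.00 over all genes. Against WT#20D-17, 7 members were lower and 1, Igfbp3, was higher, where 16.0% of all genes were lower and 9.83% higher. The median was -4.58, against -0.02 over all genes. A broad part of the transcriptome thus differed from WT#20D-17. Across the alternatives run, between 4 and 7 members passed against WT#1-4, where 3.29% to 12.1% of all genes did. Against WT#20D-17, 7 or 8 members passed, where 20.0% to 41.9% of all genes did. With filterByExpr, Igf1 was removed, so 9 members were tested in either comparison. The count of 7 against WT#1-4 came with day as a covariate, where 8.04% of all genes passed, and with both wild type lines as 1 group, where 12.1% did.

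**Figure D3:**
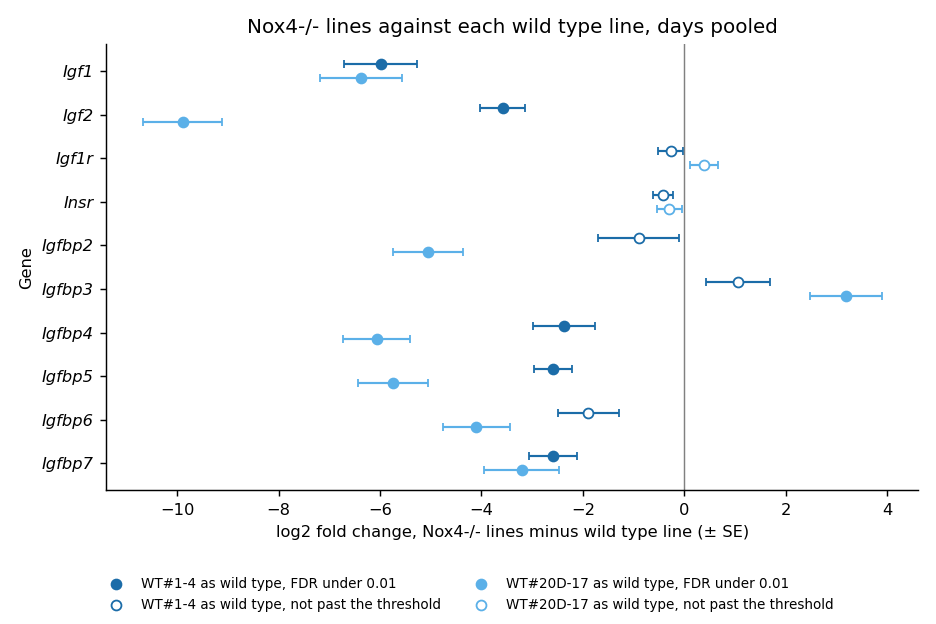
Log2 fold change of each member in the Nox4-/- lines against WT#1-4 and against WT#20D-17 with days pooled (points). Bars are the SE of edgeR's quasi-likelihood fit, and filled points passed an FDR of 0.01 in edgeR's exact test. Differences were between -9.89 for Igf2 and 3.19 for Igfbp3, and both comparisons share the 10 Nox4-/- libraries.

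Genotype is a property of the line, so the counts of each line were also summed over days and tested as 2 lines against 2 with edgeR's quasi-likelihood test. No member passed an FDR of 0.01, and 0 of 20229 genes did (0.0%). At an unadjusted p of 0.05, 5 members passed, where 8.05% of all genes did. They were Igf1 (log2 difference of -6.44 ± 0.76), Igf2 (-8.83 ± 2.53), Igfbp4 (-5.12 ± 1.78), Igfbp5 (-4.84 ± 1.23) and Igfbp7 (-2.78 ± 0.69), each with an adjusted p of 0.604. On the same sums edgeR's exact test called 1 member (Igf1), where 0.613% of all genes passed. DESeq2 called 4 (Igf1, Igf2, Igfbp5 and Igfbp7), where 4.2% of all genes passed. The quasi-likelihood test without WT#1-4 called 2 (Igf2 and Igfbp5), where 0.794% of all genes passed. Wild type was then 1 line, WT#20D-17, and the spread came from the Nox4-/- lines alone. An exact permutation test of 2 against 2 lines cannot give a p under 0.3333.

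Lines of the same genotype differed too. Between WT#20D-17 and WT#1-4, 6 members passed the threshold, where 17.7% of all genes did. Igf2 was higher in WT#20D-17 by a log2 difference of 6.29 ± 1.199 (FDR of 2.50e-06), Igfbp2 by 4.15 ± 0.82, Igfbp4 by 3.67 ± 0.65, Igfbp5 by 3.14 ± 0.89 and Igfbp6 by 2.19 ± 0.58. Igfbp3 was lower, at -2.13 ± 0.55 (FDR of 0.00197). Igf1, Igf1r, Insr and Igfbp7 did not pass, with log2 differences of 0.38, -0.67, -0.15 and 0.59. Without day 5, day 7 or day 14 only 3 members passed (Igf2, Igfbp2 and Igfbp4), where 12.5%, 12.7% and 18.8% of all genes did. With day as a covariate of the quasi-likelihood test, Igfbp5 (2.04, FDR of 0.113), Igfbp6 (1.91, FDR of 0.0580) and Igfbp3 (-2.13, FDR of 0.0178) did not pass.

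Between the 2 Nox4-/- lines, 1 member passed, where 2.19% of all genes did. It was Igfbp4, lower in Nox4-/- #5-23 by 2.73 ± 0.45 on the log2 scale (FDR of 4.65e-06). Igfbp2, at -2.02 ± 0.73, had an FDR of 0.162. It passed without day 0 (-2.01, FDR of 2.02e-14), as did Igfbp7 (-2.14, FDR of 0.00123), where 2.66% of all genes did. With day as a covariate of the quasi-likelihood test 4 members passed, where 6.31% of all genes did. Beside Igfbp4 they were Igfbp2 (-1.90, FDR of 3.55e-08), Igf1r (0.65, FDR of 0.00363) and Insr (0.59, FDR of 0.00919). Igf2 differed by -0.03 ± 0.39 between these lines.

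Change over the days was tested with all 4 lines as replicates of a day. One member, Igf1, passed the threshold (FDR of 0.00712), where 17.3% of 18474 genes did. Its fitted log2 difference of day 14 from day 0 was 3.33 ± 0.75 and rested on the wild type lines, since the Nox4-/- lines held 3 counts in all. The FDR rose to between 0.0195 and 0.0561 without any of the 4 lines. Igfbp2 and Igfbp3 had an FDR of 0.0195, with log2 differences of day 14 from day 0 of 2.63 ± 0.74 and 2.98 ± 0.64. Without WT#20D-17 both passed, at 4.79 (FDR of 5.24e-05) and 3.70 (FDR of 3.74e-05), where 23.4% of all genes passed. Igf1 did not pass in that fit (FDR of 0.0322). Igf2, whose course was steep in one genotype and flat in the other, had an FDR of 0.182.

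Whether the course differed between genotypes was tested with an interaction of genotype and day. No member passed an FDR of 0.01, and 2 of 19240 genes did (0.0104%). An unadjusted p of 0.05 was passed by 2 members, where 7.23% of all genes passed it. They were Igf2, with a log2 interaction of -5.80 ± 1.24 on day 14 (Nox4-/- minus wild type; adjusted p of 0.542), and Igfbp4, at -2.33 ± 0.86 (adjusted p of 0.671). With WT#1-4 left out, so that WT#20D-17 alone stood for wild type, 4 members passed, namely Igf2 (-8.44), Igfbp5 (-5.51), Igfbp2 (4.26) and Igfbp3 (3.90), where 3.34% of all genes did. The spread of that fit came from the Nox4-/- lines alone, and WT#20D-17 was assumed to vary like them. DESeq2's likelihood ratio test called 1, Igf2 (adjusted p of 0.00334), where 1.27% of all genes passed.

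To compare levels between genes, counts were divided by exonic length (RPKM). In WT#1-4 the members were ordered by median RPKM as Igfbp3 (90.7), Igfbp2 (23.1), Igf1r (8.26), Insr (6.73), Igf2 (4.09), Igfbp7 (3.55), Igfbp5 (2.41), Igfbp4 (1.45), Igfbp6 (0.855) and Igf1 (0.0602). Igf1r (6.53 to 11.3 RPKM) and Insr (5.46 to 9.22 RPKM) overlapped in their ranges, as did 8 of the 9 pairs of neighbours in this order, so that only Igfbp6 and Igf1 were apart. In WT#20D-17, Nox4-/- #5-8 and Nox4-/- #5-23 the ranges of 7, 6 and 8 of the 9 pairs overlapped. In WT#20D-17 Igfbp2 (463 RPKM) and Igf2 (453 RPKM) led, with overlapping ranges, and both exceeded the other 8 members in median. Igfbp3 led in Nox4-/- #5-8 (158 RPKM) and Nox4-/- #5-23 (123 RPKM). There Igf2 stood at medians of 0.447 and 0.377 RPKM, below both receptors (5.25 and 8.04 RPKM for Igf1r). Igf1 was last in each of the 4 lines.

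The makeup of the binding protein RNA followed the line. The share of Igfbp3 in the summed RPKM of the 6 binding proteins was 62.4% to 85.6% in WT#1-4, 77.8% to 95.9% in Nox4-/- #5-8 and 90.4% to 99.2% in Nox4-/- #5-23. In WT#20D-17 it was 1.96% to 10.3%, and Igfbp2 held 69.4% to 92.7%. Igfbp2 had its highest share on day 3 in the other 3 lines, at 31.2%, 20.2% and 8.82%. In these lines the summed RPKM was higher on day 14 than on day 0, at 192 against 26.2 in WT#1-4, 432 against 44.7 in Nox4-/- #5-8 and 693 against 35.6 in Nox4-/- #5-23. In WT#20D-17 it was highest on day 5, at 668.

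**Figure D4:**
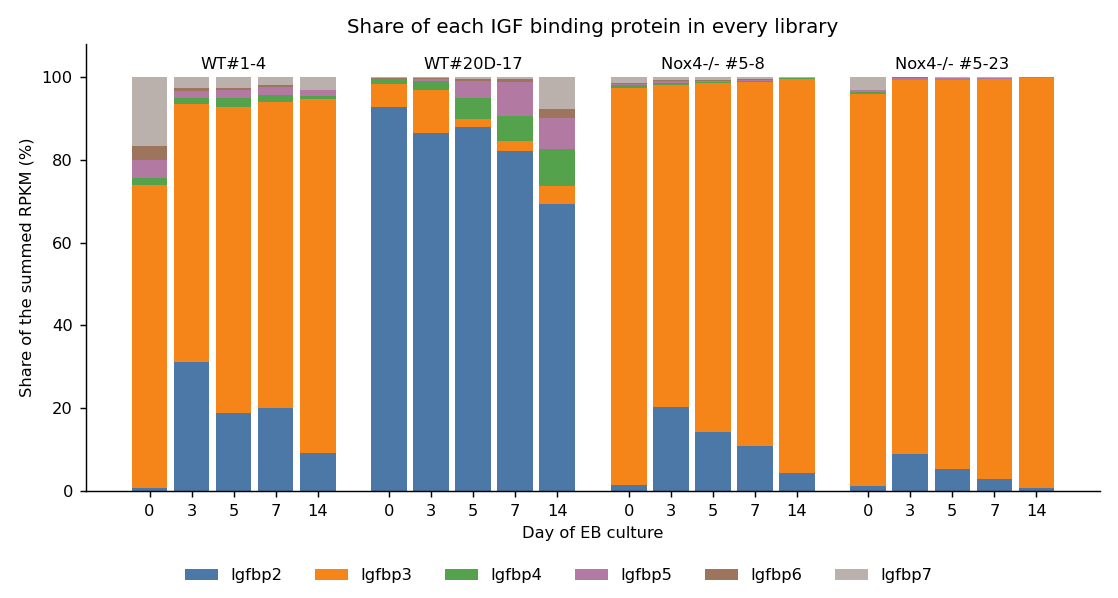
Share of each IGF binding protein in the summed RPKM of the 6, in percent, for each library (bars, ordered by day within a line). Igfbp3 made up 62.4% to 99.2% in 3 of the lines, and Igfbp2 made up 69.4% to 92.7% in WT#20D-17.

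The neighbour and the antisense partner of Igf2 were described with it. H19 (chromosome 7, 142575529 to 142578143) had 16.1, 92.5, 132, 225 and 178 CPM in WT#1-4 and 121, 1754, 3937, 6048 and 4215 CPM in WT#20D-17. It had 0.834 to 20.8 CPM in Nox4-/- #5-8 and 0.475 to 2.06 CPM in Nox4-/- #5-23. Both wild type lines were highest on day 7 for H19 as for Igf2. H19 was lower in the Nox4-/- lines, with log2 differences of -4.20 ± 0.80 against WT#1-4 (FDR of 5.60e-06) and -8.85 ± 1.00 against WT#20D-17 (FDR of 1.24e-17). It was also lower in Nox4-/- #5-23 than in Nox4-/- #5-8 (-3.26 ± 0.71, FDR of 0.00120), where Igf2 was not. The ratio of H19 to Igf2 CPM was 3.45 to 8.71 in WT#1-4 while in WT#20D-17 it was 8.35 on day 0 and 1.17 on day 14. Igf2os, antisense to Igf2, had at most 0.532 CPM in WT#1-4 and 2.50 to 86.3 CPM in WT#20D-17. Reads of Igf2 and Igf2os can be told apart only if strand was used.

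**Figure D5:**
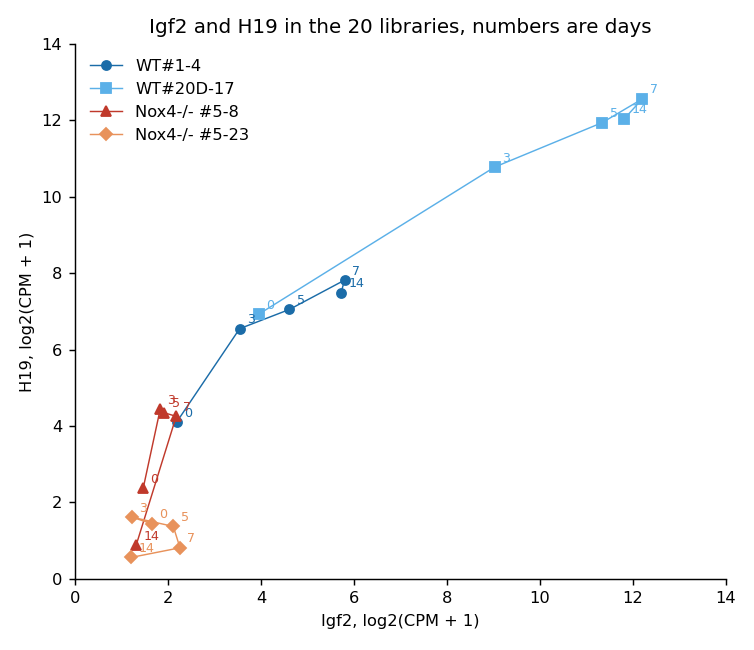
H19 against Igf2, both as log2(CPM + 1), in the 20 libraries, with the day beside each point and the libraries of a line joined in time order. Both genes reached their highest level on day 7 in each wild type line, while the Nox4-/- libraries stayed at or below 3.78 CPM of Igf2 and 20.8 CPM of H19.

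Other genes of the pathway were taken as 5 lists of 53 genes. Against WT#1-4, 8 were lower and 2 higher in the Nox4-/- lines, where 3.97% and 1.65% of all genes were, with a median log2 difference of -0.08. Against WT#20D-17, 19 were lower and 5 higher, where 16.0% and 9.83% of all genes were, with a median of -0.21. Among 7 further ligand, receptor and carrier genes, 1 was lower and 2 were higher against WT#1-4, and 3 were lower and 1 was higher against WT#20D-17. Igf2r, which clears IGF2 from the cell surface and is itself imprinted, was lower in both comparisons (-0.85 ± 0.19, FDR of 0.00112, and -2.72 ± 0.33, FDR of 1.07e-13). It had 136 to 232 CPM in WT#1-4, 139 to 1012 CPM in WT#20D-17 and 47.6 to 115 CPM in the Nox4-/- lines. The genotypes did not overlap, and the share of all genes without overlap was not counted. The antisense gene Airn overlaps Igf2r. Igfals, which encodes the acid labile subunit of the serum complex with IGFBP3, was higher in both comparisons (2.10 ± 0.44, FDR of 0.000228, and 4.52 ± 0.65, FDR of 3.32e-10). In both Nox4-/- lines each sampled day was above the one before, with 9.67 CPM on day 0 and 55.0 CPM on day 14 in #5-8 and 9.33 and 59.9 CPM in #5-23, and it had at most 9.42 CPM in WT#1-4. Igfbp1 was at or under 6 counts in every library of 3 lines and reached 25.7 CPM (490 counts) in WT#20D-17 on day 14.

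Of 5 proteases of binding proteins and their inhibitors, 2 were lower against either wild type line, and 1 was higher against WT#20D-17. Of all genes, 3.97% were lower against WT#1-4, and 16.0% were lower and 9.83% higher against WT#20D-17. The 2 lower genes were Pappa, whose protease PAPP-A cleaves IGFBP4 and IGFBP5, and Pappa2, whose protease cleaves IGFBP3 and IGFBP5. Pappa had 41 counts in WT#1-4 and 418 in WT#20D-17, against 3 in the 10 Nox4-/- libraries, a ratio scaled to library size of 26.6 (95% exact interval of 8.47 to 134) for WT#1-4. Pappa2 had 16, 835 and 1 counts, 822 of the 835 on day 14. Among the 3 Igf2 mRNA binding proteins, 0 passed against WT#1-4 by the exact test. None of them passed an unadjusted p of 0.05 there, where 16.8% of all genes did. All 3 were lower against WT#20D-17, where 16.0% of all genes were. Their log2 differences were -4.21 (Igf2bp1), -2.07 (Igf2bp2) and -2.57 (Igf2bp3).

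Of 34 signalling genes, 3 were lower and 0 higher against WT#1-4, and 8 were lower and 3 higher against WT#20D-17. Over all genes these shares were 3.97%, 1.65%, 16.0% and 9.83%, in the same order. The median log2 differences of the 34 genes were -0.15 and -0.02. The 3 were Irs2, Irs4 and Grb14, and each was lower in both comparisons. Irs2, an adaptor of both receptors, had 33.2 to 76.8 CPM in WT#1-4, 65.5 to 183 CPM in WT#20D-17 and 14.9 to 30.8 CPM in the Nox4-/- lines. The genotypes did not overlap, and here too the share of all genes without overlap was not counted. The log2 differences of Irs2 were -0.96 ± 0.22 (FDR of 0.00179) and -2.32 ± 0.21 (FDR of 3.49e-22). Irs4, another adaptor, had 0.152 to 0.892 CPM in WT#1-4, 13.95 to 116 CPM in WT#20D-17 and at most 0.193 CPM in the Nox4-/- lines. Grb14, an inhibitor of the insulin receptor kinase, had 2.24 to 5.60 CPM in WT#1-4, 1.93 to 8.49 CPM in WT#20D-17 and 0.0458 to 1.3003 CPM in the Nox4-/- lines.

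Markers of cell types moved with the lines. Summed over 10 fibroblast and feeder markers, WT#1-4 had 64.6 to 127 CPM, Nox4-/- #5-8 had 11.9 to 28.9 CPM, Nox4-/- #5-23 had 6.002 to 19.7 CPM and WT#20D-17 had 23.9 CPM on day 0 and 2999 CPM on day 14. Fap was at or under 3 counts in every library of both Nox4-/- lines, and Lum in Nox4-/- #5-23. Summed over 10 endoderm markers, WT#20D-17 had 698 CPM on day 0 and 11317 CPM on day 14. WT#1-4 had 36.1 to 133 CPM, Nox4-/- #5-8 had 20.2 to 45.7 CPM and Nox4-/- #5-23 had 53.9 to 84.9 CPM, so these 3 lines overlapped. In the Nox4-/- lines Afp, Ttr, Apoa1, Apob, Sox17 and Foxa2 were at or under 3 counts throughout. In WT#1-4 none of the 10 was that low in every library, but Afp and Ttr had medians of 0 CPM and at most 1.24 and 0.297 CPM. Their medians in WT#20D-17 were 101 and 95.0 CPM. Smooth muscle markers (4 genes) summed to 7.69 to 71.5 CPM in WT#1-4, 32.2 to 1033 CPM in WT#20D-17 and 2.23 to 23.9 CPM in the Nox4-/- lines. Endothelial (6 genes) and neural (5 genes) markers were highest in WT#1-4, at 305 to 510 CPM and 320 to 542 CPM. The medians of these sums were lowest in WT#20D-17, at 112 and 67.5 CPM. They were 185 and 169 CPM in Nox4-/- #5-8 and 250 and 124 CPM in Nox4-/- #5-23. The medians of the fibroblast, endoderm and smooth muscle sums were thus lower in both Nox4-/- lines than in both wild type lines. The medians of Igf1, Igf2, Insr, Igfbp4, Igfbp5, Igfbp6 and Igfbp7 were too, although Insr passed the threshold in neither comparison. Those of Igf1r, Igfbp2 and Igfbp3 were not, nor were those of the endothelial and neural sums. The part of these cell types in the differences of the IGF genes was not tested. In RNA from whole cultures, fewer cells of a type and less RNA per cell cannot be told apart.

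Genes most like each member were ranked by Pearson's r of log2(CPM + 1) over the 20 libraries, over 16517 genes that averaged 10 counts or more. The 20 points share 4 lines, so r mostly follows the order of the lines and is a description. For Igf2 the first 3 genes were Vwf (r = 0.98), Actc1 (0.98) and Cobll1 (0.98). The first gene was Vdr for Igf1 (0.96), Grb10 for Igf1r (0.89), Ubr2 for Insr (0.93), Bcam for Igfbp2 (0.97) and 2610509F24Rik for Igfbp3 (0.95). It was H19 for Igfbp4 (0.97), Igf2r for Igfbp5 (0.96), Filip1l for Igfbp6 (0.98) and Cd200 for Igfbp7 (0.90). H19, Igf2r and Grb10, all genes of the pathway lists, were thus the first genes for Igfbp4, Igfbp5 and Igf1r. For Igfbp4, Sema3f had nearly the same r (0.973, against 0.974 for H19).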

How the data were processed

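The authors prepared stranded mRNA libraries, trimmed the paired-end reads, mapped them to mm10 (GRCm38) with STAR 2.6.0c and estimated gene-level values with RSEM 1.3.1. They deposited these expected counts, not normalized, in 1 table of 20 libraries. Reads that fit more than 1 gene are split between them by RSEM, so 9.92% of the values were not whole, and all were rounded for testing. Symbols came from GENCODE M21 for 55480 of 55573 identifiers. Computation used R 4.3.3, edgeR 4.0.16 and DESeq2 1.42.0. For pooled comparisons, TMM factors and edgeR's exact test were applied to 33860 genes. The SE beside their log2 differences came from edgeR's quasi-likelihood fit of the same libraries. Line sums, days and interaction used edgeR's quasi-likelihood test after filterByExpr, with Benjamini-Hochberg adjusted p (FDR) under 0.01. EBSeq-HMM of the study was not used. Tests were tried on simulated counts. The labels do not say that libraries came from separate cultures, so p-values measure only the spread between these libraries. Upstream sequences came from RefSeq (GRCm38.p6). The 10 members and the lists were chosen with earlier results of these data known. Of the lists, the text named Igf2r, Igfbp1, H19, Igf2os and genes passing against both wild type lines in the same direction. The Igf2 mRNA binding proteins and marker genes were named after their values were seen. Alternatives covered test, normalization, filter, threshold, wild type line, and leaving out each line or day.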

Additional observations from a re-analysis of the deposited data

Results flagged for a closer look

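Of 40 groups of 5 libraries (10 genes in 4 lines), 6 held 1 library that lay far from the other 4. The rule flags about 1 in 20 groups of like libraries. The 5 libraries of a group are different days, so that rate does not apply to them. Igfbp2 stood apart on day 0 in 3 lines, as the lowest library, at 0.380 CPM in WT#1-4, 1.28 CPM in Nox4-/- #5-8 and 0.743 CPM in Nox4-/- #5-23. Igfbp3 was highest on day 3 in WT#20D-17, at 173 CPM, with 40.8 to 47.1 CPM on the other days. Igf1 had 0.0382 CPM on day 5 in Nox4-/- #5-8, from 1 count, and 0.0730 CPM on day 14 in Nox4-/- #5-23, from 2 counts, with 0 counts in the other libraries of these lines, so both were under the 3 counts taken as detected.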

How the results depend on the processing

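Across the alternatives, of 713 values for single members, 632 kept their direction and their side of the threshold, 32 passed it only under the alternative, 30 no longer passed it and 19 changed sign. No value past the threshold changed sign. The cause of these changes was not tested. With the line as the unit, 1 member passed by edgeR's exact test and 4 by DESeq2, where 0.613% and 4.2% of all genes did. Between the wild type lines, 3 passed with day as a covariate and 3 at an FDR under 0.001, where 13.1% and 12.9% of all genes did. With a day left out 3 to 6 passed, where 12.5% to 18.8% of all genes did. Between the Nox4-/- lines, 4 passed with day as a covariate, where 6.31% of all genes did. With a day left out 1 to 3 passed, where 0.803% to 2.81% of all genes did. For change over the days, 3 passed without a filter, 3 by DESeq2 and 3 at an FDR under 0.05. Of all genes, 9.46%, 27.6% and 28.7% passed, so in the last 2 settings members passed about as often as all genes. Without a term for the line 0 passed, where 1.8% of all genes did. With a line left out 0 to 2 passed, where 3.44% to 23.4% of all genes did. For the interaction, 1 passed by DESeq2, where 1.27% of all genes did.

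The values that changed sign were all short of the threshold. Against WT#1-4, Igf1r was 0.024 with both wild type lines and -0.69 to 0.087 with a line or day left out. Against WT#20D-17, Igf1r was -0.016 to 0.76 and Insr -0.61 to 0.016. With the line as the unit, Igf1r was -0.35 to 0.46 and Insr -0.62 to 0.014. Between the wild type lines, Igfbp7 was -0.70 with day as a covariate and -1.07 to 0.94 with a day left out, and Igf1 was -0.051 to 0.78. Between the Nox4-/- lines, Igfbp3 was -0.13 with day as a covariate and -0.23 to 0.44 with a day left out. There Igf1 was -1.58 to 2.25, Igf2 -0.095 to 0.18 and Igfbp5 -0.025 to 0.71. For change over the days, Igfbp7 was -0.52 to 2.45. For the interaction, Igf1 was -3.29 to 0.64, Igfbp2 -2.26 to 4.26 and Igfbp6 -0.48 to 3.97.

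No paired analysis was possible because the labels number no replicates. Libraries of the same day were matched instead in the fits with day as a covariate. Igf1, Igfbp6 and, in Nox4-/- #5-23, Igfbp4 and Igfbp7 rest on few counts. WT#1-4 and WT#20D-17 differ in their markers, so a genotype difference cannot be told apart from a difference between lines.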

Other observations

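Over the 20 libraries, Igf2 varied most closely, among the members, with Igfbp4 (Pearson's r of log2(CPM + 1) of 0.96), Igfbp6 (0.95), Igfbp5 (0.94) and Igfbp2 (0.80). Igfbp4, Igfbp5 and Igfbp6 were also alike among themselves, with r between 0.89 and 0.95. Igfbp3 had a negative r with each of the other binding proteins, from -0.61 with Igfbp6 to -0.34 with Igfbp2, and with Igf2 (-0.58) and Igf1 (-0.40). Igf1r had an r of 0.61 with Insr and 0.53 with Igfbp3, and an r between -0.26 and 0.07 with both ligands and the other binding proteins. The points share 4 lines, so these values describe the libraries and carry no test.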
